A study of Mus musculus with 16 samples.

Results

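The hepatocyte nuclear factor and Foxa genes described here are Hnf4a, Hnf4g, Foxa1, Foxa3 and Onecut1, the last being the gene of hepatocyte nuclear factor 6. They were taken by symbol from the deposited count table, where all 5 were found among 22869 genes, each with 1 transcript. After the filter on low counts 4 of the 5 entered the test with 15544 genes in all, and Foxa1 did not. Foxa2, the third gene of the Foxa family, is given for comparison.

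These genes encode transcription factors that were first known from liver and that also act in the pancreas. Hnf4a and Hnf4g encode nuclear receptors that bind DNA as dimers, and loss of HNF4A in people causes inherited diabetes with failing insulin secretion. Foxa proteins have a winged-helix domain and can bind their sites in compacted chromatin, ahead of other factors. Onecut1 carries a cut domain and a homeodomain, and it works in pancreatic progenitors and duct cells, upstream of Neurog3.

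RNA came from β cells sorted by flow cytometry from islets of MIP-GFP/Bl6 mice, in which the insulin promoter drives green fluorescent protein. The young mice were 4 to 6 weeks old (2 libraries) and the old mice 15, 16 and 17 months (1 library each), and every library was a pool of several animals. H3K4me1, a mark of enhancers, H3K27me3, the mark of Polycomb repression, and CpG methylation were measured in sorted β cells of C57Bl6 mice, with 1 sample per mark and age, young at 4 to 6 weeks and old at 16 to 18 months by the labels. H3K27ac, a mark of active elements, was measured in young cells alone. No treatment or deletion was given for any group.

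The old RNA libraries held 23559908 to 33562822 gene counts, against 6377619 in the shallower and 12892123 in the deeper young library, so a low count is least certain in the shallower one. Ins1 took 22.0% to 28.3% of the counts in each of the 5 libraries. Summed levels of 8 marker lists were lower in every old library than in both young ones. The lists were of other cell types (α, δ and PP, acinar, duct, endothelial, stromal and immune) and of dividing cells, which need not be another type. Of the 65 markers tested 45 fell and none rose, against 7.93% and 3.17% of all genes tested. Some α, δ and PP, acinar, duct, stromal and immune markers passed the filter on low counts only with the help of young libraries. The filter thus in part fixes their direction. Of these 8 lists, 7 were highest in the deeper young library. In bulk RNA, fewer cells of a type and less RNA per cell cannot be told apart.

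Promoter sequences from RefSeq (build GRCm38.p6) were at hand for 4 of the 5 genes, all but Hnf4g. Both starts of Hnf4a that RefSeq lists are shown because the chromatin marks below lie at one and not at the other, and those of Foxa3 and Onecut1 because both are CpG-rich and hold few methylated CpGs. Each sequence ends before its start, that of the distal start of Hnf4a somewhat short of position 163506857, and is written 5′ to 3′ along the gene. Capitals mark matches to a short binding motif.

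Hnf4a, distal start, chr2:163506607-163506810, plus strand: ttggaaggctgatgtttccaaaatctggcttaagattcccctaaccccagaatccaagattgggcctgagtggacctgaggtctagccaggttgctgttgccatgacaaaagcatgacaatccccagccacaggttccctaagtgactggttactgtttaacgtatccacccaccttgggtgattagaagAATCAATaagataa
Hnf4a, proximal start, chr2:163546905-163547154, plus strand: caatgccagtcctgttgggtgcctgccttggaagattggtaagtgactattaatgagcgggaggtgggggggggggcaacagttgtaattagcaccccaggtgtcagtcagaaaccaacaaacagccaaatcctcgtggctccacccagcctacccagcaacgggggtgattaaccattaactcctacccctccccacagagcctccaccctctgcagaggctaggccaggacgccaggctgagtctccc
Foxa3, chr7:19023540-19023789, minus strand: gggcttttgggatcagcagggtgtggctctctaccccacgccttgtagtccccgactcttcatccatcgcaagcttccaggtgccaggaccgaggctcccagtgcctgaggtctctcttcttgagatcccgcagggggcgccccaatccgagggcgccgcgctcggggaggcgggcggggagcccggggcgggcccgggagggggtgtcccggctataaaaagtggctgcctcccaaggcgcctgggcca
Onecut1, chr9:74861671-74861920, plus strand: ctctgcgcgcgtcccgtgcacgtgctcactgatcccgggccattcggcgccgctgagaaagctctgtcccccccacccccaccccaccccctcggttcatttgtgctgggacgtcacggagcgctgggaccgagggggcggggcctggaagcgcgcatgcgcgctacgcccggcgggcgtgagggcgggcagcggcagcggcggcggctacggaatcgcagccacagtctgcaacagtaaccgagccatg

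The motifs searched, on both strands in the 250 bases before a start, were TGTTTAC for FOXA, ATTGATT for ONECUT and AGGTCA for 1 arm of the HNF4 site. Of 32851 mouse promoters, 3.17%, 2.61% and 14.0% held them. At the distal start of Hnf4a only the 204 bases printed above were searched. They had 1 ONECUT match, read as AATCAAT, whose first base lay 60 bases before the start. The proximal start, Foxa3 and Onecut1 had no match in their 250 bases. The Foxa3 sequence held 18 CpGs and that of Onecut1 31, against 4 at the proximal start of Hnf4a and 1 in the 204 bases at its distal start. Such a match is letters in a sequence and shows no binding.

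By level per transcript length, Hnf4a stood first of the 5 genes in each old library. In TPM (counts scaled to transcript length and to the library), Hnf4a lay at 14.4 ± 2.60 in old cells (SD, n = 3), Foxa3 at 7.33 ± 2.64, Hnf4g at 5.85 ± 1.497, Onecut1 at 0.189 ± 0.298 and Foxa1 at 0.0066 ± 0.0115. Foxa2 stood above them at 31.9 ± 6.00 TPM. Foxa3 and Hnf4g did not differ beyond their spread and changed places in old library 3, and Onecut1 and Foxa1 overlapped, both being at 0 in old library 2. Foxa1 was last or level with the last of these 6 genes in every library but the shallower young one, where it lay at 9.84 TPM, above Hnf4a at 5.55 TPM and below Foxa2 at 29.7 TPM. Foxa2 was the main Foxa transcript in all 5 libraries and Hnf4a the main Hnf4 transcript.

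Hnf4a (mm9 chr2:163372924-163398643, plus strand) lay at 40.6, 31.7 and 48.4 CPM (counts scaled to the library total) in the old libraries and at 15.4 and 47.9 CPM in the shallower and the deeper young library. The deeper young library fell within the old range and the shallower one below it, so the groups overlapped. The log2 fold change of old over young was 0.51 (SE 0.50, adjusted p = 0.541, edgeR's quasi-likelihood test with Benjamini-Hochberg adjustment), which is within the spread of the young libraries. Of all genes tested, 3.17% were called higher and 7.93% lower in old cells at an adjusted p under 0.05, and none of the 4 tested genes of this group was called in either direction. At an unadjusted p under 0.05 Hnf4g and Onecut1 passed, and DESeq2 called Hnf4g and Foxa1.

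Hnf4g (chr3:3508030-3659800, plus strand), the paralog of Hnf4a, lay at 15.5, 11.2 and 20.2 CPM in the old libraries and at 2.82 and 5.35 CPM in the young ones. Every old library was above both young ones, a pattern that 18.7% of all tested genes showed. The log2 fold change was 2.10 (SE 0.64) with an adjusted p of 0.0692 by edgeR and did not pass the threshold of 0.05. By DESeq2 it was 1.99 with an adjusted p of 0.0119, where 6.99% of genes were called higher. The counts behind these values were 18 and 69 reads in the young and 377 to 477 in the old libraries.

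Foxa1 (chr12:58641619-58647108, minus strand) was read 127 times in the shallower young library, 0 times in the deeper one, and 0, 0 and 1 times in the old libraries. It lay at 19.9 CPM in the first, whereas the 0 of the deeper young library allows up to 0.233 CPM (3 counts). Over the pooled counts the young level was 552 times the old one, with an exact 95% interval of 97.4 to 21980 that covers counting error only, and all of it came from 1 library. Without the filter edgeR gave a log2 fold change of -8.78 (SE 2.29, adjusted p = 0.0197, with 7.99% of genes called lower), and DESeq2 gave -9.53 (adjusted p = 0.00281, with 17.5% called lower). The young libraries disagreed, so this is a difference of the shallower young library from the other 4 and not of the young group. Onecut3, a paralog of Onecut1, had the same form, with 28 reads in the shallower young library and 0 in each of the others.

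Foxa3 (chr7:19598632-19608888, minus strand) lay at 9.90, 12.4 and 6.07 CPM in the old libraries, and at 0.627 and 15.4 CPM in the shallower and the deeper young library. The young libraries stood on either side of all old ones and were 24.6-fold apart, on 4 and 199 reads. The log2 fold change was 0.37 (SE 1.05, adjusted p = 0.848, edgeR). Onecut1 and Foxa3 were the 2 of the 4 tested genes whose young libraries were over 10-fold apart, which held for 8.74% of all genes tested.

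Onecut1 (chr9:74709728-74737454, plus strand) was read 16, 0 and 1 times in the old libraries and 7 and 144 times in the young ones. That is 0.60, 0 and 0.0424 CPM against 1.10 and 11.2 CPM. Both young libraries were above every old one, a pattern shown by 28.1% of genes tested, but by a narrow step at the shallower library. The log2 fold change was -4.69 (SE 1.85, adjusted p = 0.134, edgeR), and -7.73 (adjusted p = 0.107) without old library 1, which held 16 of the 17 old reads. Onecut1 passed the filter on low counts through the young libraries and did not reach its minimum in 2 old ones. Markers of duct, where Onecut1 acts, summed to 166 to 186 CPM in old libraries and to 715 and 542 CPM in the shallower and the deeper young one, so that between the young libraries they were higher where Onecut1 was lower. Stromal markers summed to 5.93 to 9.11 CPM in old and to 247 and 3617 CPM in the shallower and the deeper young library, higher where Onecut1 was higher. That was not particular to stroma, since 7 of the 8 marker lists of other cell types and dividing cells were higher in the deeper young library. The part of any of these cell types in the Onecut1 level was not tested.

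**Figure D1:**
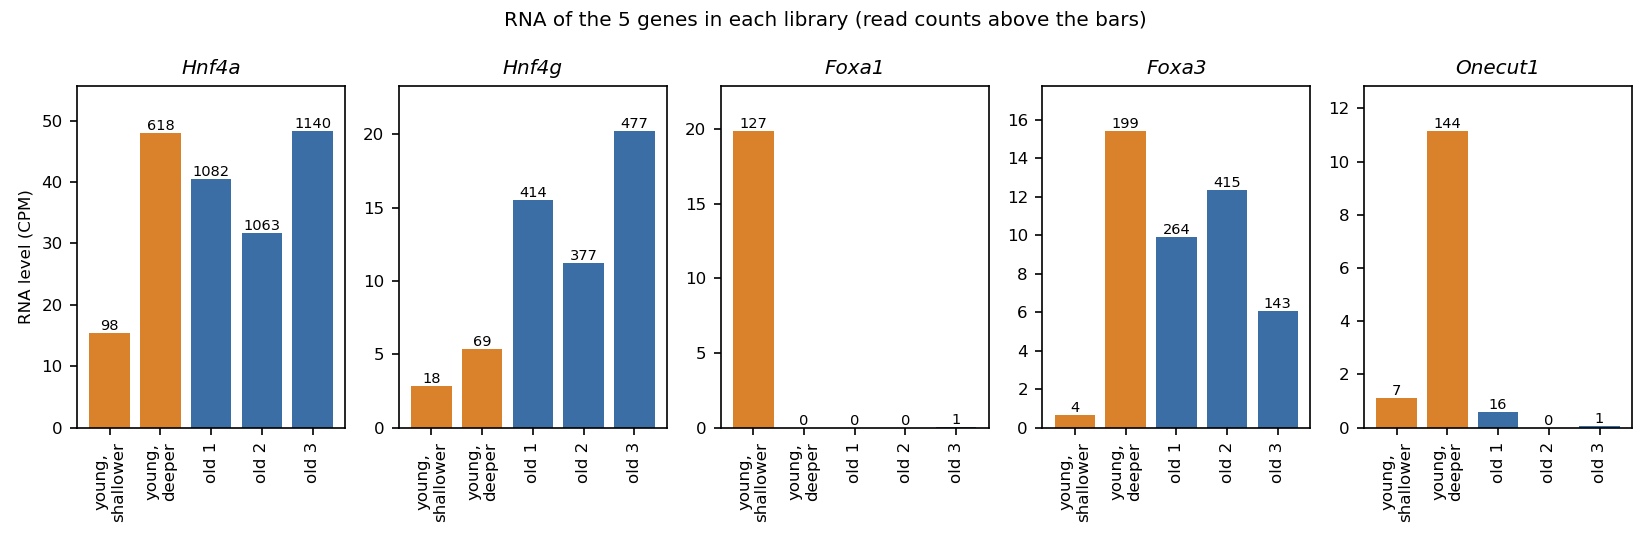
RNA level in CPM (vertical axis, from 0, separate scale per gene) in each of the 5 libraries, orange for young and blue for old, with the read count above each bar. Hnf4g is higher in all 3 old libraries than in both young ones, and Foxa1 is seen in the shallower young library, with 127 reads.

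Results for these genes turned on which young library was used. The shallower young library was the lowest of the 5 for Hnf4a, Hnf4g and Foxa3, as it was for 29.3% of all genes tested. Without the deeper young library, edgeR called Hnf4a (log2 1.55, adjusted p = 0.0201), Hnf4g (2.64, adjusted p = 0.0140) and Foxa3 (4.04, adjusted p = 0.0111) higher in old cells, where 13.9% of genes were called higher. Foxa1 was called lower (log2 -9.97, adjusted p = 0.000636), where 18.2% were, and Onecut1 had a smaller difference that was not called (-2.22, adjusted p = 0.553). Without the shallower young library Hnf4a had a log2 fold change of -0.071 and Foxa3 one of -0.55, neither called, and Onecut1 was called lower (-5.55, adjusted p = 0.0355), where 12.1% of genes were. Hnf4g kept its direction in both, at 1.73 (adjusted p = 0.0588) without the shallower library. In each of these fits the lone young library is assumed to vary like the old ones.

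Foxa2 varied little beside them, at 50.7, 39.5 and 38.9 CPM in old and 40.1 and 35.1 CPM in young cells, with a log2 fold change of 0.35 (SE 0.31, adjusted p = 0.498, edgeR). Its young values lay close together, unlike those of Hnf4a, Foxa3 and Onecut1.

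**Figure D2:**
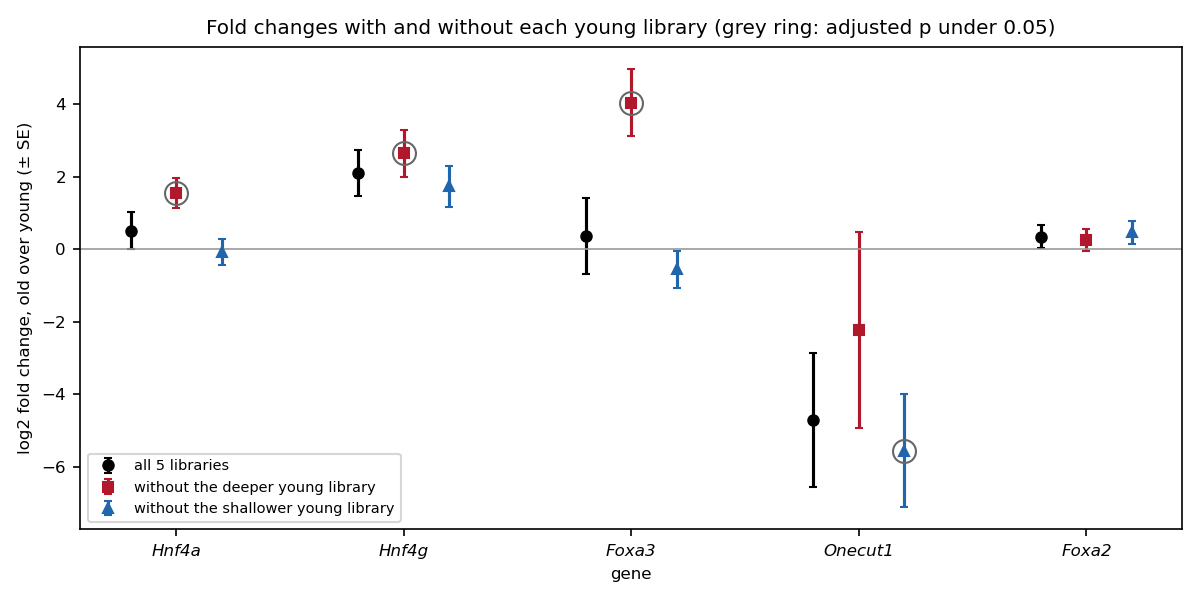
Log2 fold change of old over young with its SE (vertical axis) for the 4 tested genes and for Foxa2, with all 5 libraries (black circles), without the deeper young library (red squares) and without the shallower one (blue triangles), where a grey ring marks an adjusted p under 0.05. Hnf4g stays above 0 in all 3, while Hnf4a and Foxa3 change sign without the shallower library.

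For each tested gene, the genes of most similar profile were taken as those with the smallest root mean square difference of centred log2 CPM over the 5 libraries, among 11262 genes. Those of Hnf4a were Flrt1 (0.0273), Nr6a1 (0.0689) and A830010M20Rik (0.0956), all low in the shallower young library. Hnf4g was followed by Gbp6 (0.140), 2810432L12Rik (0.165) and Snhg11 (0.165), and Foxa3 by Aven (0.133), Mrps18c (0.156) and Zbtb43 (0.207). Onecut1 had more distant neighbours, C130074G19Rik (0.368), the collagen gene Col14a1 (0.435) and Shank2 (0.512), each highest in the deeper young library. With 5 libraries such likeness is a description of these samples.

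Among 21 partners of these factors (other family members, coactivators, corepressors and factors that share their enhancers), 19 were tested. Of these 19, 4 fell and none rose, against 7.93% and 3.17% of all genes tested. The median log2 change of the 19 was -0.62, against -0.05 over all genes tested. Onecut2, the nearest paralog of Onecut1, lay at 1.42, 2.03 and 2.33 CPM in old and 44.5 and 21.6 CPM in young cells (log2 -3.93, SE 0.58, adjusted p = 0.00949, edgeR). Nr2f2, an orphan nuclear receptor, fell by 5.04, Nr5a2, a nuclear receptor of acinar cells and liver, by 5.47, and Rxra, a partner of many nuclear receptors, by 1.38 on the log2 scale. Of the 19 partners, 2 did not reach the minimum of the filter in 2 old libraries, Nr5a2 among them. They passed it through the young libraries, so the filter in part fixes their direction. Onecut2 is also in the duct list and Nr5a2 in the acinar list. Acinar markers summed to 181 to 226 CPM in old and 1829 and 2445 CPM in young libraries, and the part of either cell type was not tested. Without old library 1 no partner was called lower, without old library 2 or 3 there were 2, and without the deeper young library 8.

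Of 23 tested genes known as targets of HNF4A or of its circuit in β cells, 1 rose and 2 fell, near the 3.17% and 7.93% of all genes tested, with a median log2 change of 0.19. Slc2a2, the glucose transporter of mouse β cells, rose (log2 1.07, SE 0.24, adjusted p = 0.0316), with every old library above both young ones. Cdh17, a cadherin of intestine and liver, and Igf1, a growth factor, fell by 6.94 and 5.04 on the log2 scale. Of 18 listed FOXA targets in islets 16 were tested, with a median of 0.15. Slc2a2, in that list too, was the one that rose, and Gcg, the glucagon gene of α cells, the one that fell (-3.71, adjusted p = 0.0432), with an adjusted p of 0.412 without the deeper young library. Without any 1 old library no gene of either list was called higher, and 0 or 1 was called lower.

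Targets of these factors in liver and gut summed to 143 to 161 CPM in the old libraries and to 393 and 222 CPM in the young ones. Of all 26 genes, tested or not, 10 were lower in every old library than in both young ones and none was higher in every old one, against 22.0% and 13.3% of the genes of the whole table, and 8 had no count in any old library. The test took in 13, of which 3 fell and none rose, with a median log2 change of -2.26. Of these 13, 6 did not reach the minimum of the filter in 2 old libraries and passed it with the help of young ones, so the filter in part fixes the direction of this median. Fabp1, a fatty acid binding protein of liver and gut, and Apoa1, the main protein of high-density lipoprotein, fell by 8.19 and 6.00 on the log2 scale (adjusted p = 0.0102 and 0.0275, edgeR). Both are among these 6 genes, so the filter in part fixes their direction too. Of 20 genes of pancreas progenitors and endocrine precursors, Onecut1 and Foxa2 among them, 19 were tested, with a median of -1.22. Onecut1, Sox9 and Nr5a2 did not reach the minimum of the filter in 2 old libraries. They passed it through the young ones, so the filter in part fixes their direction. Of the 19 genes, 5 fell, Sox9 and Nr5a2 among them, and none rose, against 7.93% and 3.17% of all genes tested. The 4 with the smallest adjusted p were Cpa1, a carboxypeptidase of acinar cells and of early progenitor tips (-4.38), Pkhd1 (-2.17) and Bicc1 (-1.97), both known from cystic kidney and duct disease, and Nr5a2. Cpa1 and Nr5a2 are also acinar markers and Pkhd1 a duct marker. With old library 1 or 3 left out, 2 progenitor genes fell, and with the deeper young one left out 8 did. Of the liver and gut genes 1 was without old library 3, and 11 were without the deeper young library.

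DNA methylation around the starts separated Hnf4a from the other 4 genes. Methylated calls within 1 kb of the annotated start were 88.8% in the young and 85.3% in the old library at Hnf4a (43 CpGs), with single CpGs at a median of 96.0% and 94.4%. At Hnf4g they were 10.9% and 12.4% (38 CpGs), at Foxa1 6.18% and 5.97% (149 CpGs), at Foxa3 5.28% and 4.59% (121 CpGs) and at Onecut1 7.67% and 11.8% (127 CpGs). Over all gene starts the medians were 11.6% and 11.3%. No start differed by 20 points or more, the size called here, which 1.27% of all starts did (Fisher's exact test on summed calls, adjusted p under 0.05). Fisher's exact test compares 1 library with 1 library, not the ages, and calls on the same read are not independent.

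Within 1 kb Onecut1 had the largest of these shifts, 4.14 points (adjusted p = 5.36e-16), and 79 of its 127 CpGs were higher and 45 lower in the old library. The median CpG went from 5.48% to 10.2%. In the 250 bases printed above, the CpGs of Onecut1 were at 4.73% in young and 8.41% in old cells, while those of Foxa3 were at 7.57% and 7.82%. Within 500 bases the largest was at Foxa3, which went from 10.5% to 4.54% (52 CpGs, adjusted p = 5.81e-15), while Onecut1 moved by 2.66 points. Within 2 kb Onecut1 went from 8.56% to 15.8% (214 CpGs, adjusted p = 8.69e-58, Fisher's exact test). Foxa3 went from 7.29% to 6.88% there (180 CpGs, adjusted p = 0.371, same test). At Hnf4g the direction turned with the measure, since the mean of its CpG levels went from 17.8% to 14.2%.

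The start of Hnf4a in the count table is the proximal one, and no peak of any of the 5 histone lists lay within 1 kb of it. The only young H3K27ac region within 50 kb was centred 40448 bases upstream (chr2:163331823-163333130 in mm9). RefSeq lists a second start 40298 bases upstream of the proximal one in GRCm38.p6. Its place among the mm9 CpGs was found by sliding the CpG spacings of both sequences, with 300 bases around each start, along the deposited CpG list. Of 401 shifts tried, 1 matched 3 or more CpGs, and it matched 4 of 4 at each start. That put the distal start 40331 bases before the annotated one, inside the H3K27ac region. Transcription of Hnf4a in islets is known to begin at a far upstream promoter and that in liver at a proximal one.

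Methylation followed the same division. Within 500 bases, 12.96% of calls were methylated in young and 5.84% in old cells at the distal start (17 CpGs), against 82.4% and 77.9% at the proximal start (24 CpGs). Within 1 kb the values were 31.3% and 17.4% at the distal start. Over the H3K27ac region they were 17.8% and 9.73% (20 CpGs, 15 lower and 5 higher in old, adjusted p = 9.95e-05), short of 20 points. A young H3K4me1 peak lay 40682 bases upstream, inside the H3K27ac region. The old peak 41095 bases upstream overlapped only the edge of that region, and the old peak 38999 bases upstream lay outside it. The window of the distal start was chosen after these data were seen.

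Another stretch with called differences within 50 kb of the start of Hnf4a lay downstream, past the end of the gene. The 1-kb tile chr2:163412001-163413000, centred 39576 bases after the start, held 51.8% methylated calls in young and 25.2% in old cells (22 CpGs, 16 lower and 6 higher, adjusted p = 5.66e-17). A young H3K4me1 peak at 40019 bases fell from 62.9% to 39.8% (5 CpGs), and an old one at 39470 bases from 42.1% to 13.1% (4 CpGs, adjusted p = 5.95e-05). Another young peak between them, at 39663 bases, went the other way on 3 CpGs, from 8.33% to 25.3%, and was not called. The adjoining tile, chr2:163413001-163414000, went the other way, from 65.96% to 85.8% (11 CpGs, adjusted p = 5.45e-06), just short of 20 points. No other gene of the table starts within 50 kb downstream of the start of Hnf4a. Starts beyond that window were not searched, and a link of this stretch to Hnf4a was not tested.

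**Figure D3:**
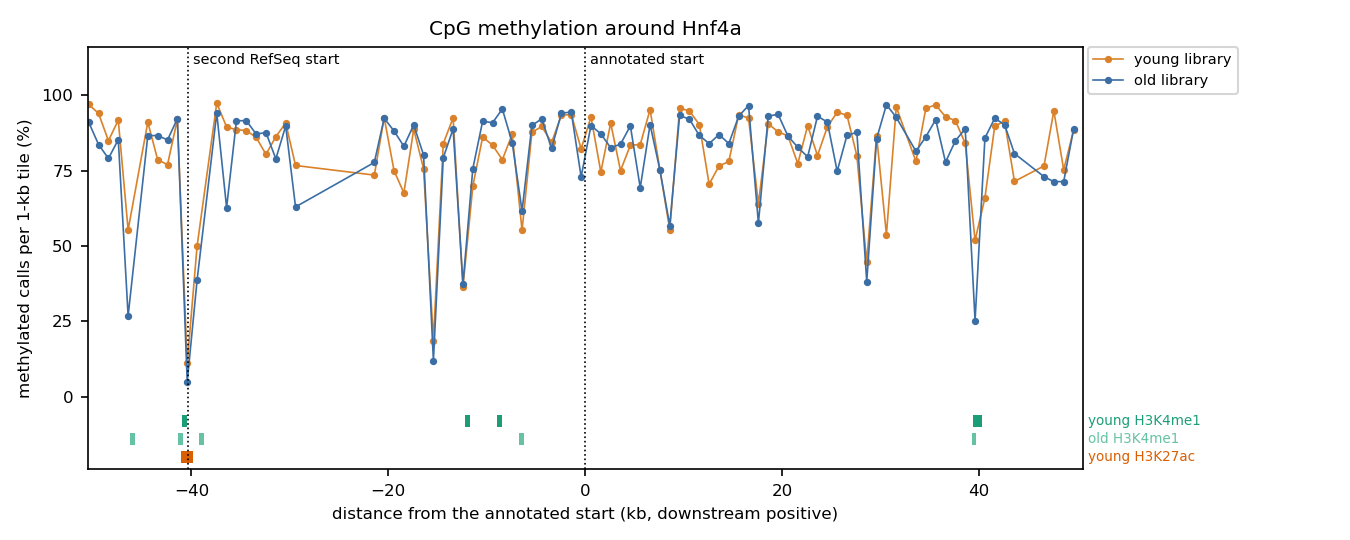
Share of methylated calls in 1-kb tiles (vertical axis, %) against the distance from the annotated start of Hnf4a (horizontal axis, kb) in the young (orange) and old (blue) library, with H3K4me1 peaks and H3K27ac regions as bars below, peaks drawn at least 0.5 kb wide. Methylation is low at the distal start, where the H3K27ac region lies, and high at the annotated one, and the tile near 39.6 kb goes from 51.8% to 25.2%.

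Hnf4g, by contrast, carried its active marks at the annotated start. An H3K27ac region centred 103 bases after the start was at 9.03% in young and 7.87% in old cells (33 CpGs). H3K4me1 peaks lay within 1 kb of it in both ages, 2 young and 1 old. H3K27me3 regions of 8000 and 7000 bases lay about 10030 and 11530 bases upstream in young and old cells. Within 50 kb, methylated calls went from 62.8% to 69.4%, and within 20 kb from 46.2% to 58.3% (132 CpGs), a difference larger than that of 99.5% of genes. The mean of CpG levels in the 20 kb moved less, from 58.9% to 63.1%.

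Foxa1 and Onecut1 lay inside long Polycomb domains in both ages. The H3K27me3 region over the start of Foxa1 was 89000 bases long in young cells and 78000 in old ones, and that over Onecut1 84000 and 53000 bases, against a median of 9000 in either list. By score within its own list the Foxa1 region was at the percentile 99.04 in young and 96.5 in old cells, and the Onecut1 region at 99.1 and 99.2. Further H3K27me3 regions lay close beside them. In the old list these were 47000 and 13000 bases long at Onecut1 and 9000 at Foxa1, and in the young list 5000 at Foxa1. The lengths thus depend on where a call was split, and a shorter old region is not a measured loss. Neither gene had an H3K27ac region within 50 kb. H3K4me1 peaks within that distance numbered 4 in young and 0 in old cells for Foxa1, and 8 and 4 for Onecut1, in lists of 77291 young and 36207 old peaks. RNA and chromatin came from different mice, so the 19.9 CPM of Foxa1 in 1 young library had no chromatin measured beside it.

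Foxa3 differed from these in that its H3K27me3 region over the start (chr7:19606001-19615000) was in the old list alone. Within 50 kb the young list had 1 region and the old list 5, and the old list as a whole covered 649 Mb against 452 Mb. The 6 H3K27ac regions within 50 kb lay 11412 to 32577 bases downstream of the start, all past the end of the gene. Of these, 1 was near the start of Irf2bp1 at 19474 bases and 1 near that of Mypop at 32294 bases. A link of these regions to Foxa3 was not tested. The start of Sympk lay 838 bases upstream of Foxa3, so marks there cannot be given to 1 gene. Of the 6 regions, that at 11412 bases was at 25.2% in young and 15.9% in old cells (45 CpGs, 37 lower), short of 20 points.

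Counted over the 5 genes, the start had an H3K4me1 peak within 1 kb in 3 of 5 for the young list (Hnf4g, Foxa1, Onecut1) and in 2 of 5 for the old one (Hnf4g, Onecut1), against 45.6% and 30.0% of all gene starts. An H3K27ac region was within 1 kb in 1 of 5, against 34.4%, and H3K27me3 in 2 of 5 in young and 3 of 5 in old cells, against 28.0% and 41.5%. Within 50 kb H3K4me1 was found for 5 of 5 and 4 of 5 genes (86.3% and 76.4% of all), H3K27ac for 3 of 5 (61.1%), and H3K27me3 for 5 of 5 in both ages (69.6% and 80.4%). No test of 5 genes against all was made. The lists were called separately in 1 library each, so a peak in 1 age alone is not a measured change.

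Of the histone peaks near these genes with 3 or more CpGs, methylation was called different in 2 of 16 young H3K4me1 peaks and in 1 of 8 old ones, near the 13.9% and 13.4% of all peaks of those lists. None of 8 H3K27ac regions (5.59% of all), of 6 young H3K27me3 regions (0.924%) or of 13 old ones (0.702%) was called. Besides the pair at Hnf4a, the called peak was a young H3K4me1 peak 4538 bases upstream of Onecut1 (chr9:74705128-74705253), which went from 2.39% to 23.0% (adjusted p = 5.28e-15). All 8 of its CpGs were higher in the old library, where they ranged from 15.6% to 38.7% against 0 to 9.09% in the young one. The old list had no peak there.

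In 1-kb tiles within 50 kb, 16 of 352 were lower in old cells and 6 higher, or 4.55% and 1.70%, against 2.24% and 2.16% of all tiles. Foxa1 had 6 of the lower ones among 70 tiles. With at least 10 reads per CpG 2 of them were still called, a tile 36608 bases downstream that went from 43.2% to 19.9% (12 CpGs) and one 20392 bases upstream that fell by 24.96 points (8 CpGs). A pair at the 3′ end of the gene, at 4608 and 5608 bases, went from 67.7% to 41.2% and from 71.2% to 38.2% on 6 and 5 CpGs, and a tile 6392 bases upstream rose from 13.04% to 48.96% on 5. At Onecut1 3 were lower and 3 higher, and the tile 9228 bases upstream rose from 55.2% to 94.5% on 6 CpGs. These last 4 tiles had too few CpGs for a value at 10 reads, as had the other higher tiles of Onecut1 and both tiles of Hnf4g. At Hnf4a 4 were lower and 1 higher, the last a tile 30576 bases downstream that rose from 53.8% to 96.9% (16 CpGs, 14 higher, none lower) on a median of 10 and 38 reads per CpG. Hnf4g had 1 lower and 1 higher in 20 tiles and Foxa3 2 lower ones, 7388 and 15388 bases downstream. With at least 10 reads per CpG, 11 of 284 tiles were called.

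Over the whole 50 kb either side, methylated calls went from 78.9% to 77.4% at Hnf4a, from 27.3% to 27.7% at Foxa1, from 34.4% to 38.9% at Foxa3 and from 35.0% to 38.8% at Onecut1. Hnf4a was the only one of the 5 that was lower in the old library, where the median gene went from 57.1% to 60.2%. By the mean of CpG levels 4 of the 5 were lower and Hnf4g alone higher. Genome-wide the share of methylated calls was 63.6% in young and 66.8% in old cells, but the mean CpG level 74.4% and 74.2%, so differences of a few points in wide windows depend on how CpGs are weighted.

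**Figure D4:**
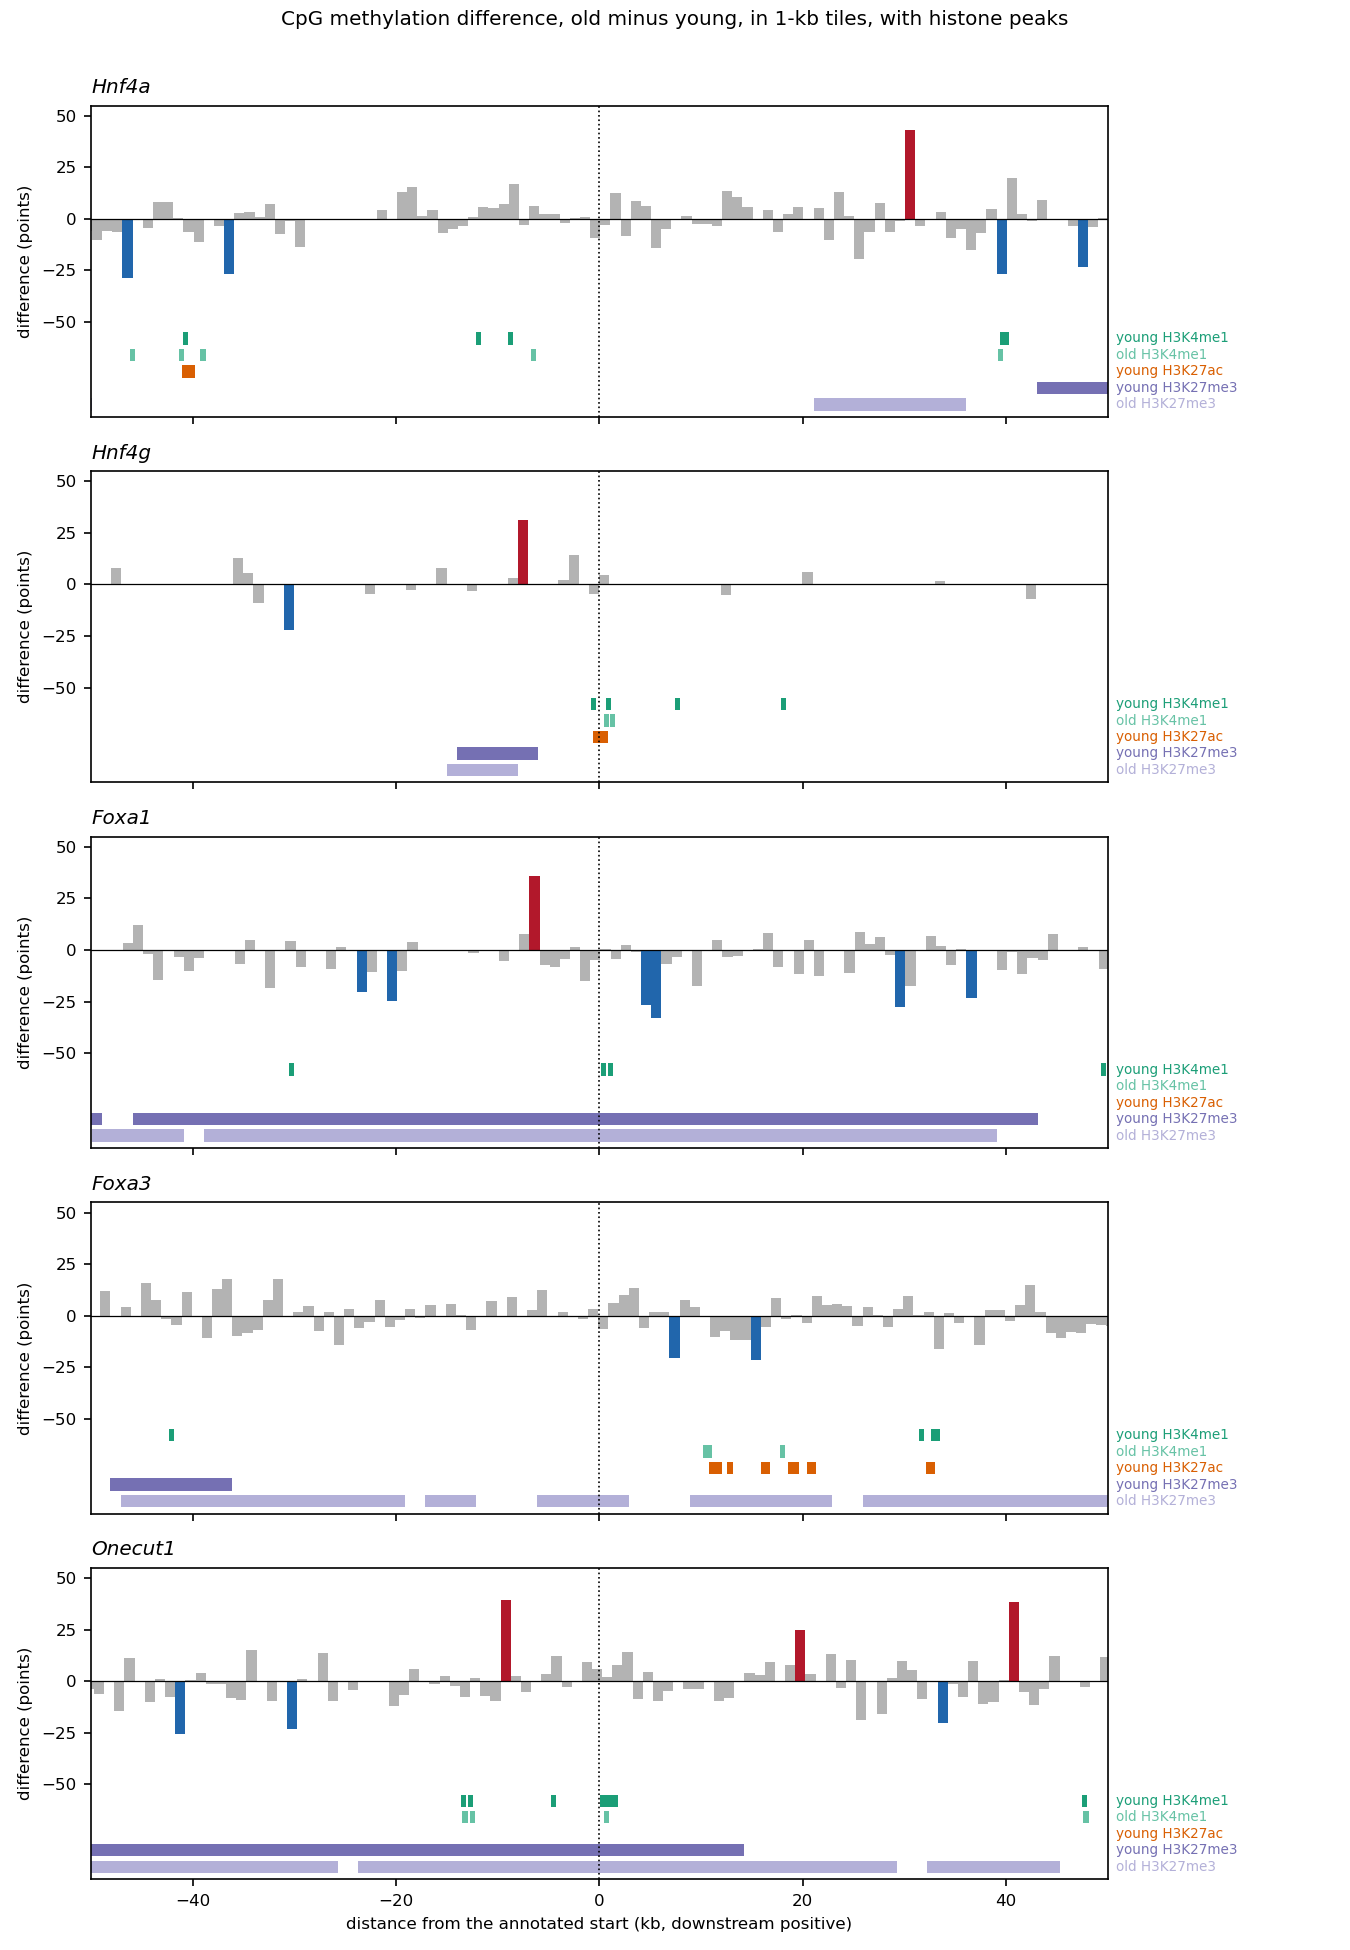
Methylation difference of old minus young in percentage points (vertical axis) for 1-kb tiles against distance from each start (horizontal axis, kb), blue where called lower, red where called higher and grey otherwise, with the histone peaks of each list below, drawn at least 0.5 kb wide. Long H3K27me3 bars cover the starts of Foxa1 and Onecut1 in both ages, and the H3K27ac bars are found at Hnf4a, Hnf4g and Foxa3.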

How the data were processed

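The 5 genes and all gene lists were chosen with earlier results of these data known. The count table was deposited as whole-number read counts per RefSeq transcript (mm9), and the transcript with the most reads stood for its gene. The submitters' processing notes list edgeR, HOMER, STAR, Bowtie 0.12.7 and CASAVA 1.8.2 with no role. The other deposited RNA table, an FPKM table by name, held a signal per length. Its column for old library 3 repeated that of the shallower young one, so it gave only relative lengths (for TPM) and positions. No source used here says whether counting used strand. HOMER called the peaks of H3K27ac and H3K4me1 over 1 input each, per the file headers. The deposited peak score ranked peaks within a list, and the deposited fold over input and p-value columns were not used. The H3K27me3 lists have no header. The CpG tables were deposited as methylated fraction and coverage per CpG. The design text names 3 young RNA replicas, of which 2 had columns, and 2 old H3K27me3 replicas, of which 1 list was used. For the old bisulfite pool its age differs from the label.

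RNA was tested with edgeR 4.0.16 in R 4.3.3 (quasi-likelihood, two-sided, TMM factors, filterByExpr, 3 old against 2 young, Benjamini-Hochberg over all genes, threshold 0.05), and DESeq2 1.42.0 was an alternative. Columns of the young libraries carry no replicate number, so they are named by depth. P-values measure the spread between these pools. Per CpG, calls were fraction times coverage. CpGs with 5 to 200 reads in both libraries (15445737, median 19 young and 21 old reads) were summed over windows of at least 5 CpGs, or peaks of at least 3, and compared by Fisher's exact test (scipy and numba), called at 0.05 and 20 points. The steps were tested on simulated data. The genes named are the 5 members, Foxa2, up to 4 called genes per list, the 3 most similar profiles, and called peaks or tiles, otherwise the peak nearest the start. Some genes that this rule names are not reported here. Onecut3, the wide regions and the tiles described were picked from these after their values were seen. Alternatives changed normalization, filters, transcripts, libraries, CpG coverage and windows.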

Additional observations from a re-analysis of the deposited data

How the results depend on the processing

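With 3 old and 2 young libraries, none of the 5 genes was called by edgeR, which tested all but Foxa1. DESeq2 called 2 of the 5 (Hnf4g and Foxa1), and edgeR with no filter called 1 (Foxa1). Leaving out 1 library gave 0 to 4 called genes, 40 to 2368 genes of the table called higher (492 with all libraries) and 273 to 3099 called lower (1232). DESeq2 called 1176 higher and 2947 lower, and no filter called 823 higher. RLE factors moved the median log2 change of all tested genes from -0.05 to -0.17 and changed no direction among the 4 tested genes. Without the shallower young library the direction turned for Hnf4a (-0.071) and Foxa3 (-0.55), neither of them called, and without the deeper one both were called at 1.55 and 4.04. Onecut1 ranged from -7.73 to -2.22 when 1 library was left out. Of the called list genes, Cpa1 and Pkhd1 stayed called in all 5 fits that leave out a library, Onecut2 in 4 of 5 (adjusted p up to 0.0506) and Slc2a2 in 2 of 5 (up to 0.135).

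The promoter difference of Hnf4g turned with at least 10 reads per CpG (-0.72 points), with 500 bases either side (-0.89) and with the mean of CpG levels (-3.59), and that of Foxa1 with 500 bases (0.10). At Foxa3 it went from -0.69 points (adjusted p = 0.0995) to -6.01 (adjusted p = 5.81e-15) with 500 bases. Within 20 kb Hnf4a (0.53) and Foxa1 (-0.24) turned. By the mean of CpG levels, an alternative added after seeing the data, 4 genes and not 1 were lower within 50 kb. At a difference of 10 points 6 peaks and 72 tiles were called, not 3 and 22, and with at least 10 reads 11 tiles were, 10 lower and 1 higher. Peaks within 1 kb of the starts made 11 pairs of gene and list, and 6 if most of the peak had to lie inside. The cause of these shifts was not tested. No paired analysis was possible because the young columns carry no replicate number. Bisulfite results rest on 1 library per age, and depth limits the shallower young RNA library, where Hnf4g, Foxa3 and Onecut1 had 18, 4 and 7 reads.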
